A study of Mus musculus with 8 samples.

Results

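The respiratory chain genes were the 107 gene rows whose names mark subunits of the mitochondrial respiratory complexes or of ATP synthase, among 32285 gene rows in all. Of these, 94 were nuclear genes and 13 were encoded on the mitochondrial genome. They were picked by name prefix (Nduf, Sdh, Uqcr, Cox with a digit of 4 to 8, Atp5, and the mt-Nd, mt-Co, mt-Cytb and mt-Atp genes). By gene name, the nuclear members comprised 39 genes of complex I, 8 assembly factors of complex I, 4 subunits of complex II, 8 of complex III, 18 of complex IV and 17 of complex V, which is ATP synthase. Ndufa4, now placed in complex IV, is counted with complex I throughout because of its name. The genes were followed through 4 cell classes and 4 tissues, and both the set and the classes were proposed with measured shares of these cells in view, so the size of a share by class or tissue is a description.

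The complexes of the inner mitochondrial membrane pass electrons from NADH and succinate to oxygen and use the resulting proton gradient to make ATP. Complex I (NADH dehydrogenase), complex III (cytochrome bc1), complex IV (cytochrome c oxidase) and complex V are built from subunits of both genomes, whereas complex II (succinate dehydrogenase) is wholly nuclear. Neutrophils are known for drawing most of their ATP from glycolysis and for carrying few mitochondria when mature, and their progenitors in marrow for active respiration.

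The mice were females of the strain written C57BL6/J, with MOPC cells, a mouse oropharyngeal carcinoma line, injected under the skin of the flank; the characteristic field spells the line MPOC. Tumor, spleen, blood and bone marrow were each loaded as 1 droplet library, and the effect of a tissue cannot be told apart from that of its library. The genotype field of each library reads WT and Genotype_02, a knockout model that is not named. No label ties a hashtag antibody to a genotype, so the genotype behind each hashtag is unknown and genotypes could not be separated. Groups that rest on few hashtags, in tumor and in immature neutrophils of spleen, may be unbalanced in genotype. Live cells were sorted as Gr1+ and lineage-negative (NK1.1, FcRe, Ter119, B220, CD3) or as Gr1- and cKit+. Tumors were digested with enzymes for 45 min at 37 °C and the other tissues were not. Hashtags mark organ, mouse and condition, and a hashtag number within a tissue was taken as 1 mouse; all p-values measure the spread between these hashtag sums.

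The filtered matrix held 20012 cells: 462 from tumor with 7163843 UMIs (unique molecular identifiers, counts of captured RNA molecules), 6105 from spleen with 50111292, 7763 from blood with 34232732 and 5682 from marrow with 64092351. A hashtag was assigned to 47% of tumor cells, 91.9% of spleen cells, 90.7% of blood cells and 89.6% of marrow cells. In total 31 barcodes occurred in more than 1 library and involved 62 cells. Classes were assigned in a fixed order. Immature neutrophils had at least 1% of their UMIs in the granule genes Camp, Ngp and Ltf, and mature neutrophils had at least 3% (1% in tumor) in S100a8 and S100a9. Among the remaining cells, Kit-positive cells had at least 1 Kit UMI and monocytes at least 2 Ly6c2 UMIs. These rules classed 17263 cells, or 86.3%. UMIs were summed per hashtag, tissue and class over at least 20 cells, or 5 in tumor, and levels are in CPM, counts per 1000000 UMIs of the sum.

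The class names were checked against marker lists. In tumor the 6 neutrophil markers summed to 24497.4 to 38086.1 CPM in the cells above the 1% S100 threshold, against 156860.7 to 214310.8 CPM in blood mature neutrophils. The 6 macrophage markers, all with UMIs, summed to 1153.2 to 3820.9 CPM in these tumor cells, against 156 to 415 CPM in blood, where C1qa and C1qb were at 0. The 6 monocyte markers, all called higher in these tumor cells, summed to 2892.6 to 10386.9 CPM, against 2166.6 to 3656 CPM in blood, and 73 of the 180 tumor cells also held at least 2 Ly6c2 UMIs. Over single cells, the median macrophage sum was 565 CPM in the tumor cells and 0 in blood. Of 180 such tumor cells 85 held a UMI of C1qa, C1qb or C1qc, complement genes of macrophages, against 3 of 6018 blood cells. The tumor cells are therefore called S100-rich tumor cells and not neutrophils. The tumor cells of the monocyte rule are likewise called Ly6c2-positive tumor cells: 6 monocyte markers summed to 5120 to 18240.7 CPM in them, against 28162.7 to 34262.1 CPM in blood monocytes, with 4 of 6 called lower, and 53.1% of them held a UMI of a T or NK marker, against 5.11% in blood. Spleen Kit-positive cells also stood apart from those of marrow. In them 7 progenitor markers summed to 172 to 1438.8 CPM in spleen and 6191.2 to 12390.8 CPM in marrow. The 5 erythroid markers summed to 1292.3 to 2636 CPM in spleen and 740 to 1188.8 CPM in marrow, but only 36.1% and 38.8% of cells held a UMI of them. Dendritic markers had UMIs in 96.4% of these spleen cells, with a median sum over cells of 469 CPM, against 85.8% and 136 CPM in marrow. The part of these cell types in the results was not tested except where cells were left out.

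Of the 107 members 101 were tested in at least 1 fit, since a gene needed 100 summed UMIs. The 6 others were Cox4i2 with 62 UMIs in all cells, Cox7a1 with 191, Cox7b2 with 2, Cox8b with 1, and Ndufa4l2 and Cox8c with none. Cox7a1, Cox8b and Cox8c are known as the muscle or testis isoforms of cytochrome c oxidase subunits. Genes of the mitochondrial genome have near-identical nuclear copies, and mt-Atp8 overlaps mt-Atp6 as mt-Nd4l overlaps mt-Nd4, so their counts are uncertain to that degree.

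Promoters of nuclear respiratory genes are known for sites of NRF1 and of ETS factors such as GABP, and for YY1. RefSeq promoter windows (GRCm38.p6, 250 bases before the start and 50 after it) were found for 77 of the 94 nuclear members, as 82 windows. The NRF1 motif, written as GCGC, any 2 bases and GCGC again, was in 22 of the 82 windows (26.8%) on either strand, against 2045 of 32851 promoters of all genes (6.23%). The ETS letters CCGGAAG were in 19 windows (23.2%), against 2910 of all promoters (8.86%), and the YY1 letters AAGATGGC in 11 (13.4%), against 903 (2.75%). At least 1 of the 3 motifs was in 45 member windows (54.9%) and in 5262 of all promoters (16%). A match describes letters and not binding. The 150 bases before the start are shown for members tested in both the marrow and the tumor comparisons: those with the largest fall in immature neutrophils among members with each motif in these bases, and for the largest and the smallest fall among members with none, with motif letters in capitals. They are Ndufab1 (chr7:122101849-122101998, minus strand), Ndufs3 (chr2:90904722-90904871, minus), Atp5j (chr16:84834977-84835126, minus), Ndufaf2 (chr13:108158626-108158775, minus) and Ndufv3 (chr17:31519965-31520114, plus).
Ndufab1: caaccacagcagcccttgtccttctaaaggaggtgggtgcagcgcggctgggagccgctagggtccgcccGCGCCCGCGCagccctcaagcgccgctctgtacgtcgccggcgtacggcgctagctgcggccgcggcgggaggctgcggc
Ndufs3: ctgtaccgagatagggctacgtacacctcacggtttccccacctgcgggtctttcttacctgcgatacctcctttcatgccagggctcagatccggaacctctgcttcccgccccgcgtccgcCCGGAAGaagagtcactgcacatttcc
Atp5j: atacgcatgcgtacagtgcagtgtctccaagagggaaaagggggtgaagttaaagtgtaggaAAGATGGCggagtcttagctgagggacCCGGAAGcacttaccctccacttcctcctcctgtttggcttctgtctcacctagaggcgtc
Ndufaf2: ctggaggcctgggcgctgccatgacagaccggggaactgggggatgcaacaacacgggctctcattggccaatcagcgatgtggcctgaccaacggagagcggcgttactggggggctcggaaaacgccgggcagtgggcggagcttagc
Ndufv3: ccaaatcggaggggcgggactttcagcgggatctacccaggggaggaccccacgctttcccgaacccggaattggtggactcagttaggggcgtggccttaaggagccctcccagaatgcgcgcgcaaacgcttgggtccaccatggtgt
The NRF1 match of Ndufab1, the acyl carrier subunit of complex I, begins 80 bases before the start. The ETS match of Ndufs3, a core subunit of complex I, begins 27 bases before it. Atp5j, coupling factor 6 of ATP synthase, has an ETS match at 61 and a YY1 match at 88 bases. In immature neutrophils against Kit-positive cells of marrow, the log2 fold changes were -2.61 for Ndufab1, -2.47 for Ndufs3, -0.67 for Atp5j, -3.64 for Ndufaf2 and 0.03 for Ndufv3. Over the members with a window that were tested, the median change was -1.34 for 44 members with any of the motifs and -1.48 for 30 with none.

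In marrow both genomes' shares stepped down from Kit-positive cells to immature and then mature neutrophils, the mitochondrial share more. This is an order of classes and not a traced lineage, since Kit-positive cells were picked by Kit alone. Of those in marrow 38.8% held a UMI of an erythroid marker and 34% of a platelet marker, though the median sum of each list was 0 CPM. The 13 mitochondrial members took 1.32% ± 0.0398 of UMIs in Kit-positive cells, 0.331% ± 0.0409 in immature neutrophils and 0.184% ± 0.0519 in mature neutrophils (SD, n = 8 hashtag sums each). The 94 nuclear members took 2.9% ± 0.145, 1.23% ± 0.0666 and 0.875% ± 0.112 of UMIs in the same order. There were thus 2.21 ± 0.143 nuclear UMIs per mitochondrial UMI in Kit-positive cells, 3.76 ± 0.339 in immature and 4.99 ± 1.14 in mature neutrophils. The ranges of the mitochondrial share in Kit-positive cells (1.25% to 1.38%) and immature neutrophils (0.254% to 0.384%) did not overlap, whereas those of immature and mature neutrophils (0.118% to 0.276%) did. A lower share can mean less RNA of these genes or more RNA of other genes in a cell, and these shares cannot tell them apart. Cells near a class threshold were set side by side: within 20% above the granule threshold of marrow, 33 cells had a median mitochondrial share of 0.161%, and within 20% below it 52 cells had 0.134%. In tumor 16 cells just above the S100 threshold had a median of 1.7% and 16 just below it 1.62%.

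**Figure D1:**
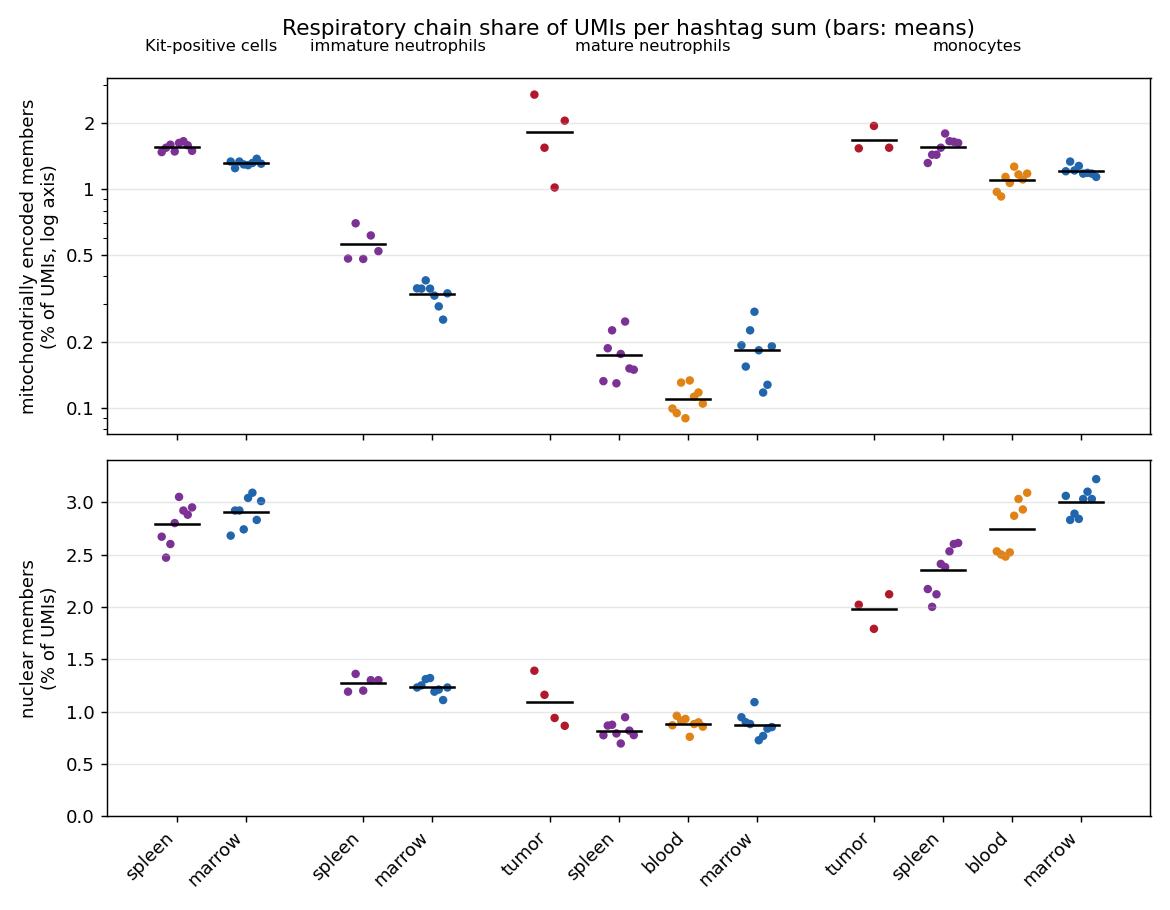
Share of UMIs in the 13 mitochondrial members (upper panel, log axis) and the 94 nuclear members (lower panel) for each hashtag sum, by class and tissue, with bars at the means. Mitochondrial shares of mature neutrophils lie between 0.09% and 0.276% in spleen, blood and marrow, and those of S100-rich tumor cells between 1.02% and 2.71%.

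The first comparison set immature neutrophils against Kit-positive cells of marrow, 8 sums each with the hashtag as a block. Of 88 tested nuclear members 84 were lower in immature neutrophils and 0 were higher, and all 13 mitochondrial members were lower (edgeR quasi-likelihood test, adjusted p under 0.05). Among all 11109 tested genes 67.0% were called lower and 20.4% higher. The median log2 fold change was -1.38 for nuclear members, -2.23 for mitochondrial members and -1.05 for all genes. This comparison depended on scaling: TMM factors moved the all-gene median to -0.14, with 61 nuclear members lower and 17 higher, and DESeq2 moved it to -0.44, with 74 lower and 9 higher. With library sizes that leave out the class-defining genes the all-gene median was -0.29, with 70 nuclear members lower and 10 higher. Mitochondrial members were lower in 12, 13 and 13 cases under these 3 scalings, with medians of -1.30, -1.61 and -1.47.

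Among the nuclear members grouped by complex, the assembly factors of complex I had the lowest median, in part through how genes entered the fit. These proteins help to build the complex and are not part of the finished enzyme. Ndufaf4 had 0, 1.59 and 4.13 CPM (lowest, median, highest sum) in immature neutrophils, against 47.6, 71.3 and 92.6 CPM in Kit-positive cells of marrow. The groups did not overlap, and the log2 fold change was -5.06 ± 0.19 (SE; edgeR adjusted p = 1.32e-22). Ndufaf6 had a log2 fold change of -4.51 ± 0.23 and Ndufaf2, which acts late in assembly, of -3.64 ± 0.14. Ndufaf5 (-2.93 ± 0.31), Ndufaf1 (-2.33 ± 0.19), Ndufaf8 (-1.83 ± 0.11) and Ndufaf7 (-1.09 ± 0.14) were lower as well. Ndufaf3 was not called at -0.15 ± 0.13 and turned positive under the other 3 scalings. The median over the 8 factors was -2.63, against -1.27 over 38 tested complex I genes, of which 35 were lower.

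Among the core subunits of complex I, Ndufv1, which binds NADH, had a log2 fold change of -1.96 ± 0.11 and Ndufs1 of -1.09 ± 0.10. All 4 complex II genes fell, by 1.13 (Sdhb) to 1.92 (Sdhc) on the log2 scale. In complex III the core proteins Uqcrc1 (-1.70 ± 0.08) and Uqcrc2 (-1.67 ± 0.08) and the Rieske protein Uqcrfs1 (-1.67 ± 0.10) had like changes, and all 8 genes were lower. All 17 complex V genes were lower, with a median of -1.37. The c-ring of ATP synthase is encoded by Atp5g1, Atp5g2 and Atp5g3, whose mature proteins are the same. Atp5g1 had 43.1, 72.5 and 101 CPM (lowest, median, highest) in immature neutrophils, against 657, 805 and 896 CPM in Kit-positive cells, a log2 fold change of -3.44 ± 0.17. Atp5g2 had -2.52 ± 0.13 and Atp5g3 -1.88 ± 0.09, while the catalytic head genes Atp5a1 and Atp5b had -2.15 ± 0.08 and -1.96 ± 0.09.

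Several subunits of complex IV have paired isoforms. Cox6a2, the heart and muscle isoform, had 0.849, 3.56 and 22.1 CPM in Kit-positive cells and no UMI in any immature or mature sum of marrow. It entered the fit through the other classes alone, so its lower level in neutrophils was built in. The partner isoform Cox6a1 fell by 0.63 ± 0.09 on the log2 scale, a sign that TMM factors and library sizes without class genes turned round. Cox6b2, known as the testis isoform, had 6.13, 10.2 and 14.1 CPM in immature neutrophils, against 96.3, 104 and 130 CPM in Kit-positive cells. Its log2 fold change of -3.31 ± 0.12 stood beside -1.07 ± 0.08 for the common isoform Cox6b1. Ndufa4, whose protein belongs to complex IV, had -1.96 ± 0.12, Cox4i1 -0.93 ± 0.07, Cox7a2 -0.62 ± 0.07, Cox7a2l -1.57 ± 0.07 and Cox8a -1.12 ± 0.07. Of these, Cox4i1 (0.00) and Cox7a2 (0.31) did not stay below 0 with TMM factors.

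**Figure D2:**
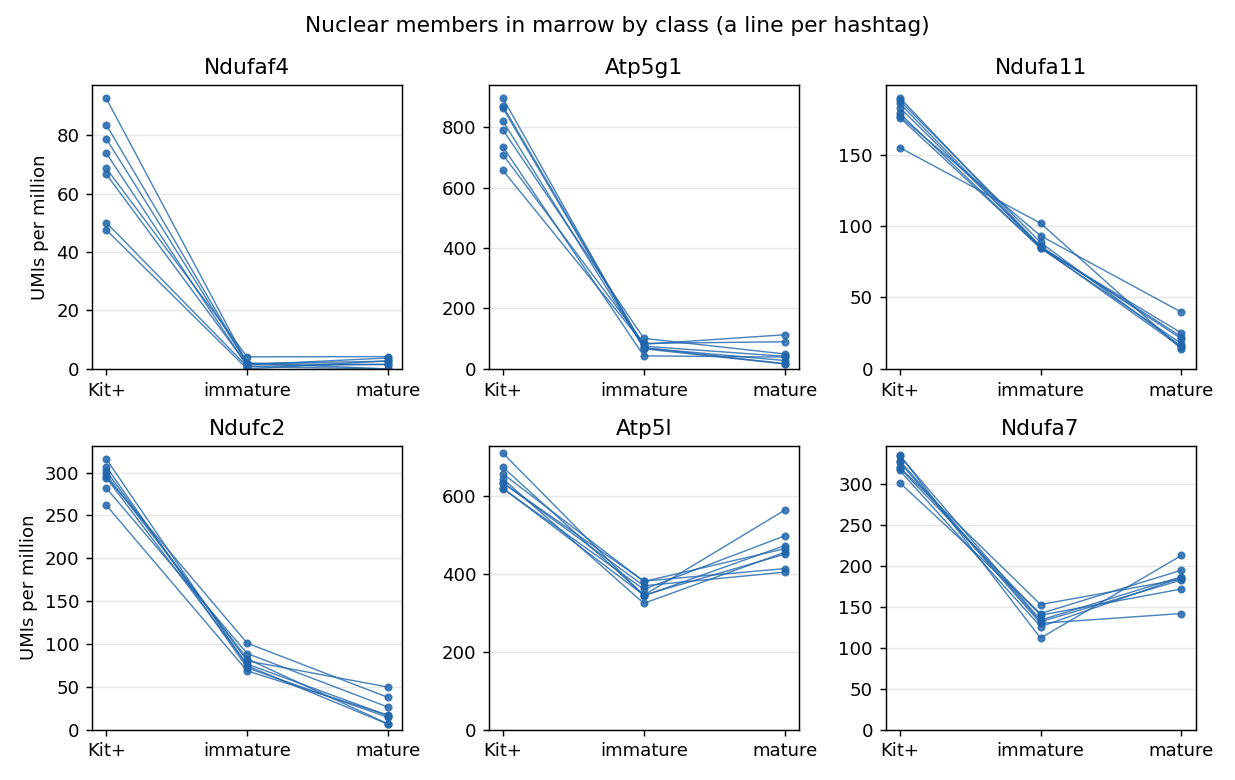
CPM per hashtag sum of marrow for single members in Kit-positive cells, immature neutrophils and mature neutrophils, in that order. Kit-positive sums of Ndufaf4 (47.6 to 92.6 CPM) and Atp5g1 (657 to 896 CPM) lie above every neutrophil sum.

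The mitochondrial genes did not fall evenly. The 4 genes with the largest fall were mt-Nd1, mt-Nd2, mt-Nd3 and mt-Cytb: mt-Nd1 had a log2 fold change of -3.10 ± 0.18, mt-Nd2 of -2.99 ± 0.15, mt-Nd3 of -2.95 ± 0.13 and mt-Cytb of -2.80 ± 0.14. The other complex I genes had -2.37 (mt-Nd4l), -2.25 (mt-Nd6), -2.23 (mt-Nd4) and -2.12 (mt-Nd5), beside -2.20 for mt-Atp6. The smallest falls were those of mt-Co2, by 1.77 ± 0.10 and mt-Co1, by 1.02 ± 0.08 on the log2 scale. In CPM, mt-Co1 had 745, 869 and 935 (lowest, median, highest) in immature neutrophils, against 1572.9, 1747.3 and 1830.8 in Kit-positive cells. For mt-Nd1 the values were 54.4, 123 and 160 CPM in immature neutrophils, against 855, 967 and 1069.5 CPM in Kit-positive cells. Neither gene's groups overlapped. As a share of all mitochondrial member UMIs, mt-Co1 made up 25.9% ± 2.05 in immature neutrophils, against 13.1% ± 0.604 in Kit-positive cells, and mt-Nd1 made up 3.52% ± 0.744, against 7.45% ± 0.503 (SD, n = 8 each).

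**Figure D3:**
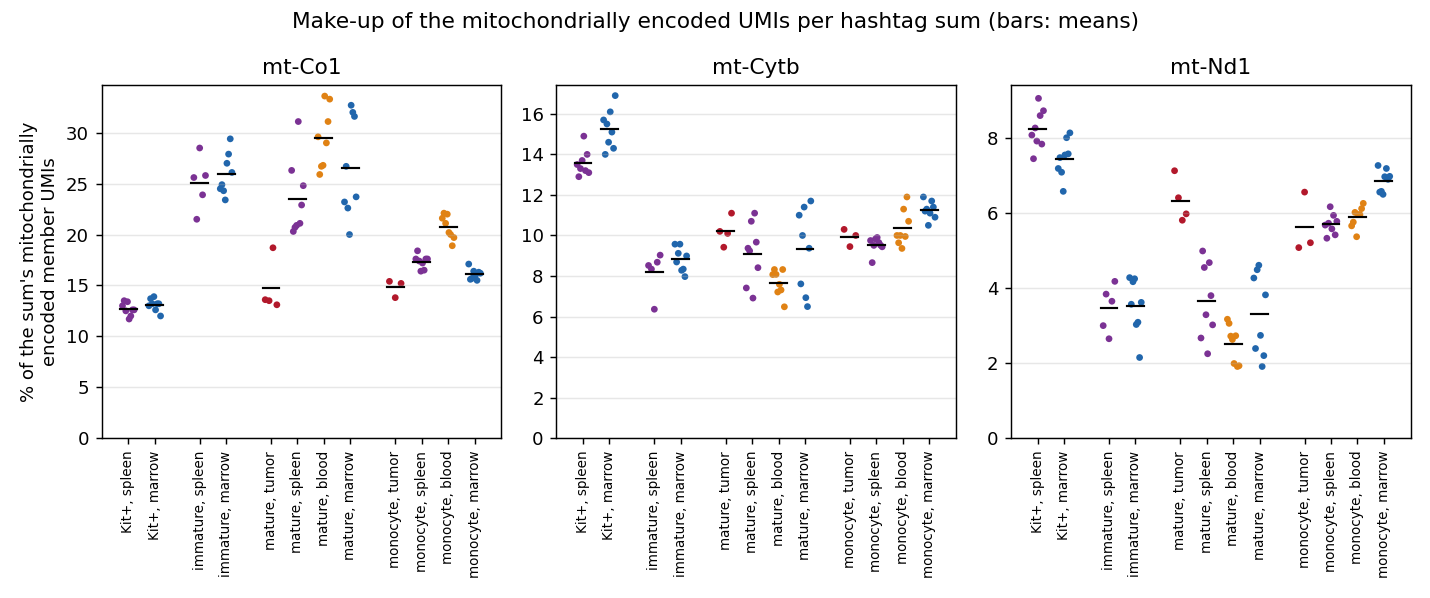
Percent of each hashtag sum's mitochondrial member UMIs that fell on mt-Co1, mt-Cytb and mt-Nd1, by class and tissue, with bars at the means. The mt-Co1 share averages 25.9% in immature neutrophils of marrow, 13.1% in Kit-positive cells of marrow and 14.7% in S100-rich tumor cells.

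Mature neutrophils were then set against immature ones in marrow, again with the hashtag as a block. Of 88 nuclear members 68 were lower in mature neutrophils and 3 higher, and 11 of 13 mitochondrial members were lower, while 29.3% of all tested genes were called lower and 26.4% higher. The median log2 fold change was -0.65 for nuclear members, -0.82 for mitochondrial members and -0.12 for all genes. TMM factors moved the all-gene median to -0.25, and library sizes without class genes to -0.43, where 75 nuclear members were lower and 0 higher. Accessory subunits of complex I led the fall, with 33 of 38 lower. Ndufa11, a membrane arm subunit, had 13.8, 19.4 and 39.7 CPM in mature neutrophils, against 84.5, 85.7 and 102 CPM in immature neutrophils. These groups did not overlap, and the log2 fold change was -2.08 ± 0.12 (edgeR adjusted p = 8.85e-17). Ndufc2 (-2.0 ± 0.18), Ndufa5 (-1.61 ± 0.19), Ndufc1 (-1.55 ± 0.13) and the complex III subunit Uqcrb (-1.51 ± 0.14) followed.

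The 3 genes higher in mature neutrophils were Ndufa7 (0.43 ± 0.08), Cox7a2l (0.39 ± 0.08) and Atp5l (0.38 ± 0.07), subunit g of ATP synthase. Among the assembly factors 3 of 8 fell further, Ndufaf1 (-2.18 ± 0.46), Ndufaf3 (-1.25 ± 0.19) and Ndufaf8 (-0.69 ± 0.16). Ndufaf4 had 0, 2.11 and 4.21 CPM in mature neutrophils, which overlapped its values in immature ones. In complex II Sdhb (-0.30 ± 0.12) and Sdhc (-0.73 ± 0.20) were lower, and Sdha (0.17 ± 0.12) and Sdhd (0.10 ± 0.10) were not called. Mitochondrial genes fell by 0.70 (mt-Nd4) to 1.28 (mt-Nd4l) on the log2 scale where called, and mt-Atp8 and mt-Nd6 were not.

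Few cells carried much of the mitochondrial signal of mature neutrophils. Among mature neutrophils with a hashtag, the 5% with the most mitochondrial UMIs held 54.9% of these UMIs in spleen, 39.8% in blood and 50.5% in marrow. These cells were picked by that count, so a share above 5% is built in. The like share was 20.9% and 14.4% in Kit-positive cells and 22.1% and 30.2% in immature neutrophils of spleen and marrow. In monocytes outside the tumor it was 10.9% to 15.7%, and cells of these 3 classes had more UMIs. Hashtagged mature cells with over 3 times the median UMIs of their class and tissue numbered 35 in spleen, 61 in blood and 23 in marrow. They held 34.7%, 23.9% and 35.5% of the mitochondrial UMIs but 6.17%, 4.93% and 6.8% of all UMIs. Progenitor markers summed to 97.8 to 5200.7 CPM over the mature sums of marrow. With the high-UMI cells left out, an alternative chosen after seeing the data, mature neutrophils fell further below immature ones: the nuclear median was -0.88 with 74 lower, and the mitochondrial median -1.43 with 12 lower. At the other end, 16.9% of mature cells in spleen, 21% in blood and 13.2% in marrow held no mitochondrial UMI, at median depths of 2931, 3058.5 and 3774 UMIs.

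Lists of other mitochondrial genes were counted in the comparison of immature neutrophils with Kit-positive cells, in which 67.0% of all tested genes were lower and 20.4% higher, with a median of -1.05. The mitochondrial ribosome had 77 of 78 genes lower in immature neutrophils than in Kit-positive cells (median -2.10), protein import 15 of 15 (-2.65), and the TCA cycle with pyruvate dehydrogenase 15 of 16 (-1.51). Genes of mitochondrial DNA upkeep, transcription and RNA had 14 of 16 lower and 1 higher (-2.65), including the mitochondrial RNA polymerase Polrmt (-3.82 ± 0.36) and the packaging factor Tfam (-2.71 ± 0.15). Electron carriers had 7 of 8 lower and 1 higher (-2.10), assembly factors of complexes III and IV 16 of 17 lower (-1.63), and mitophagy and outer membrane genes 7 of 8 lower and 1 higher (-1.23). Regulators had 7 of 9 lower and 1 higher, a share near that of all genes, with a median of -0.58 above theirs. Among them the coactivator genes Ppargc1b (-4.40 ± 0.30) and Pprc1 (-4.84 ± 0.27) and Myc (-4.99 ± 0.24) were lower. Uncoupling and antioxidant genes, with 5 of 7 lower, were also near the share of all genes, and 1 was higher, the peroxiredoxin gene Prdx5 at 3.24 ± 0.09. These single genes were named after their values were seen.

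In mature against immature neutrophils, where 29.3% of all genes were lower and 26.4% higher, the list counts were 54 of 78 lower and 3 higher for the mitochondrial ribosome, 10 of 15 and 1 for import, 12 of 16 and 1 for the TCA cycle, and 5 of 16 and 1 for mitochondrial DNA and RNA. Electron carriers had 3 of 8 lower and 0 higher, the other assembly factors 6 of 17 and 2, mitophagy and outer membrane genes 3 of 8 and 2, and uncoupling and antioxidant genes 5 of 7 and 2. Regulators had 3 of 9 higher and 0 lower, and this share of higher genes, like the lower share of mitochondrial DNA and RNA genes, is near that of all genes. The 3 were Hif1a (1.99 ± 0.10), Nrf1 (0.42 ± 0.09) and Yy1 (0.32 ± 0.10), named after their values were seen.

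The next question was how cells of the mature class differ between tissues. In tumor these are the S100-rich cells, which are not called neutrophils here. A gap to blood can thus come from cell type as well as tissue, and the 2 cannot be told apart. Mitochondrial members took 2.71%, 1.55%, 1.02% and 2.06% of UMIs in the 4 tumor sums, against 0.09%, 0.109% and 0.134% (lowest, median, highest of 8) in blood. Nuclear members took 1.39%, 1.16%, 0.939% and 0.864% in the tumor sums, against 0.759%, 0.889% and 0.96% in blood. Only the mitochondrial shares were wholly separate; the nuclear ranges overlapped. There was 0.652 ± 0.228 nuclear UMI per mitochondrial UMI in S100-rich tumor cells (n = 4) and 8.17 ± 1.55 in blood mature neutrophils (n = 8).

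All 11 tested mitochondrial members were higher in S100-rich tumor cells than in blood mature neutrophils, with a median log2 fold change of 4.38, against 0.14 for all genes. Of 82 tested nuclear members 49 were higher and 8 lower, with a median of 0.70, while 29.3% of 8763 tested genes were called higher and 23.0% lower. With mt-Nd1 the change was 5.46 ± 0.33 (edgeR adjusted p = 1.32e-15): 1933.2, 992, 591 and 1229.9 CPM in the tumor sums, against 20.4, 27.8 and 35.5 CPM (lowest, median, highest) in blood. The change of mt-Co1 was 3.0 ± 0.17, the smallest of the 11: 3688.4, 2091, 1897.5 and 2696.7 CPM in the tumor sums, against 241, 338 and 449 CPM in blood. For both genes every tumor sum lay above every blood sum. The make-up of the mitochondrial UMIs moved with it, since mt-Co1 was 14.7% ± 2.63 of them in S100-rich tumor cells and 29.5% ± 2.97 in blood mature neutrophils.

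Among the nuclear members, Ndufa11 had 144, 69.8, 124 and 36.4 CPM in the tumor sums, against 6.46, 7.74 and 15.6 CPM in blood, a log2 fold change of 3.03 ± 0.37. Ndufa5 (2.96 ± 0.62), Atp5g1 (2.65 ± 0.45), Ndufa12 (2.64 ± 0.41) and Sdhc (2.37 ± 0.44), the membrane anchor of complex II, were next; Ndufa5 had no UMI in 1 tumor sum. The 8 lower genes included Atp5l (-0.78 ± 0.10) and Ndufa7 (-0.75 ± 0.12), which mature neutrophils had above immature ones in marrow. Atp5l had 399, 343, 404 and 296 CPM in the tumor sums, all below the blood sums of 515 to 644 CPM. Ndufa3 (-0.79 ± 0.21), Ndufb9 (-0.66 ± 0.13) and Ndufa13 (-0.49 ± 0.13) were also lower. By complex, 24 of 38 complex I genes, 3 of 4 of complex II, 4 of 8 of complex III, 7 of 11 of complex IV and 11 of 17 of complex V were higher, and 0 of 4 assembly factors; 5 of the 8 lower genes were of complex I. Electron carriers had 3 of 7 higher and 0 lower, the TCA cycle 9 of 14 and 0, import 9 of 14 and 1, and the mitochondrial ribosome 26 of 63 and 4.

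The nuclear counts moved with how the tumor cells were chosen and weighted. Without cells that held a C1q UMI, an alternative chosen after seeing the data, 20 nuclear members were higher and 7 lower (median 0.34), and the 11 mitochondrial members stayed higher (3.42). With a 3% S100 threshold in tumor too, 1 nuclear member was higher and 13 lower (-0.25), and 11 mitochondrial members were higher (4.50). At 5% in every tissue the counts were 0 and 14 (-1.02), with 10 mitochondrial members higher. The all-gene median was -0.06 without C1q cells, -0.49 at 3% and -1.09 at 5%, below the nuclear median each time. TMM factors moved the all-gene median to -0.22 and gave 32 nuclear members higher and 14 lower, and DESeq2 moved it to -0.12 and gave 35 and 11. The mean of per-cell CPM gave 19 and 20, a hashtag margin of 5 gave 19 higher and 7 lower, and cells thinned to 1000 UMIs gave 4 and 5. Mitochondrial members were 11, 11, 11, 11 and 10 higher under these 5 settings. The nuclear and all-gene medians were -0.08 and -0.70 with per-cell CPM, and -0.01 and -0.33 with thinning.

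**Figure D4:**
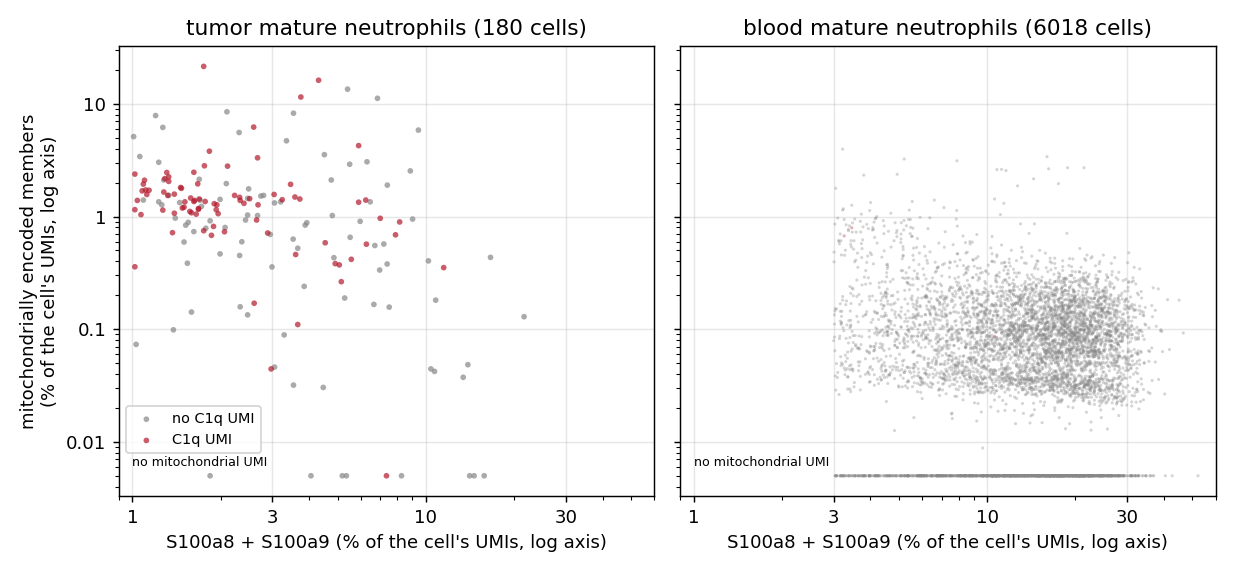
Mitochondrial member share of UMIs (log axis) against the S100a8 and S100a9 share for single S100-rich tumor cells (left, titled tumor mature neutrophils after the class rule) and blood mature neutrophils (right), with cells that hold a C1q UMI marked; cells without a mitochondrial UMI are drawn at 0.005%. Tumor medians are 1.35% at 1% to 2% S100 and 0.0464% at 10% or more, where blood has 0.0649%.

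Within the tumor the mitochondrial share varied with the S100 share that defines the class. It had a median of 1.35% in 76 cells with 1% to 2% S100 UMIs, 1.27% in 31 cells with 2% to 3%, 0.881% in 29 cells with 3% to 5% and 0.671% in 32 cells with 5% to 10%. The 12 cells with 10% or more had a median of 0.0464%. Blood mature neutrophils had medians of 0.0801%, 0.0671% and 0.0649% in the upper 3 of these bins. The share of tumor cells with a C1q UMI moved with it, at 63.2%, 45.2%, 37.9%, 34.4% and 8.33%, as did the median depth, at 20252.5, 18157, 7658, 4571 and 2806.5 UMIs. Tumor cells with a C1q UMI had a median mitochondrial share of 1.36% and those without 0.838%, at median depths of 23706 and 5191 UMIs. Stress genes of cell dissociation such as Fos and Jun moved with the tumor as well: 6 of them summed to 3103.4 to 4623.5 CPM in the tumor sums, against 1011.9 to 2013.1 CPM in blood. Their part in the result was not tested.

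Spleen mature neutrophils differed from those of blood in the mitochondrial genes. Their mitochondrial share was 0.13%, 0.165% and 0.249% (lowest, median, highest of 8 sums), against 0.09%, 0.109% and 0.134% in blood, ranges that overlapped slightly. Of 11 mitochondrial members 8 were higher in spleen, with a median log2 fold change of 0.78, while 8.22% of all genes were called higher and 5.20% lower. The change was 1.30 ± 0.28 for mt-Nd1, with 35.4, 51.5 and 116 CPM in spleen, against 20.4, 27.8 and 35.5 CPM in blood. It was 0.32 ± 0.14 for mt-Co1, which was not called. Of 82 nuclear members 0 were higher and 6 lower (median -0.04). Ndufb1-ps fell by 0.55 ± 0.09 on the log2 scale, and Ndufa3, Ndufa1, Atp5k and Cox7c fell by 0.36 to 0.55. The nuclear count was 3 without hashtag 1, 2, 3 or 8, 12 with TMM factors, 19 with DESeq2, and 12 with library sizes without class genes. With the hashtag as a block, 11 nuclear members were lower and 2 higher, and 9 mitochondrial members higher. With the mean of per-cell CPM, which gives each cell the same weight, 1 nuclear and 0 mitochondrial members were called. Progenitor markers summed to 6.88 to 2432.7 CPM in spleen and 1.61 to 11.8 CPM in blood, with 4 of 4 tested higher, and 3 of 6 immature neutrophil markers were higher. B and plasma markers summed to 150 to 213 CPM in spleen and 0 to 2.33 CPM in blood, and erythroid markers to 8.4 to 19.7 CPM in spleen and 100 to 9685.7 CPM in blood; their part was not tested.

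Blood mature neutrophils in turn lay below those of marrow in the mitochondrial genes. The mitochondrial share was 0.09%, 0.109% and 0.134% in blood, against 0.118%, 0.188% and 0.276% in marrow, and these ranges overlapped. Of 11 mitochondrial members 9 were lower in blood (median -0.75) and 0 were higher, and of 82 nuclear members 28 were lower and 8 higher (median -0.13), while 14.1% of all genes were called lower and 32.8% higher. Ndufa5 had 1.61, 3.43 and 6.04 CPM in blood, against 5.29, 15.5 and 30.4 CPM in marrow, a log2 fold change of -2.02 ± 0.38. Ndufa12 (-1.19 ± 0.27), Atp5g1 (-1.15 ± 0.33), Ndufv3 (-1.14 ± 0.16) and Ndufa11 (-1.11 ± 0.26) were also lower. Higher in blood were Ndufb1-ps (0.61 ± 0.10), Ndufa7 (0.51 ± 0.07), Sdha (0.48 ± 0.13), Atp5md (0.47 ± 0.11) and Atp5e (0.43 ± 0.09).

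Without the high-UMI cells 10 nuclear members were lower in blood and 14 higher (median 0.07), and 6 mitochondrial members were lower (-0.46). Without hashtag 4 the count was 17 lower. The all-gene median was 0.19; TMM factors moved it to 0.01 and gave 42 lower and 6 higher, DESeq2 moved it to -0.01 and gave 45 and 5, and library sizes without class genes moved it to -0.01 and gave 42 and 5. The mean of per-cell CPM gave 1 lower and 6 higher, with 0 mitochondrial members called, and cells thinned to 1000 UMIs gave 5 and 9, with 2 mitochondrial members lower. The nuclear and all-gene medians were 0.07 and 0.29 without high-UMI cells, 0.05 and 0.26 with per-cell CPM, and 0.06 and 0.23 with thinning. Immature neutrophil markers summed to 1211.3 to 2555 CPM in blood and 5466 to 8096.8 CPM in marrow, with 6 of 6 lower, and progenitor markers to 1.61 to 11.8 CPM in blood and 97.8 to 5200.7 CPM in marrow, with 4 of 4 tested lower. Erythroid markers summed to 100 to 9685.7 CPM in blood and 2.76 to 118 CPM in marrow mature neutrophils, and dissociation stress genes to 1011.9 to 2013.1 CPM and 128 to 337 CPM; their part was not tested.

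Immature neutrophils of spleen, with 5 sums, had more mitochondrial member UMIs than those of marrow, with 8. The mitochondrial shares were 0.483%, 0.7%, 0.481%, 0.616% and 0.522% in spleen, against 0.254%, 0.343% and 0.384% (lowest, median, highest) in marrow, with no overlap. The nuclear shares were 1.19% to 1.36% in spleen and 1.11% to 1.32% in marrow. Of 12 mitochondrial members 9 were higher in spleen (median 0.77) and 0 lower, and of 83 nuclear members 0 were called in either direction, while 0.563% of 7986 tested genes were called higher and 0.426% lower. The median nuclear change was 0.06. The gene mt-Co1 had 1234.8, 1508.6, 1372.9, 1471.4 and 1347.6 CPM in spleen, all above the 745 to 935 CPM of marrow, a log2 fold change of 0.70 ± 0.07 (edgeR adjusted p = 5.12e-06). The largest change was 1.07 ± 0.20, of mt-Nd3. Without hashtag 5 the mitochondrial count was 5, and it was 5 with cells thinned to 1000 UMIs and 6 with the hashtag as a block. Retnlg, a gene of late neutrophils, had 2182.6 to 3143 CPM in spleen and 6196.4 to 9030 CPM in marrow, with no overlap. Progenitor markers had a median sum of 1737.6 CPM in spleen and 648 CPM in marrow, though 0 of 5 tested were called, and B and plasma markers summed to 46.5 to 74.9 CPM in spleen and 3.16 to 11 CPM in marrow; their part was not tested.

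Kit-positive cells of spleen were set against those of marrow, with 8 sums each. The mitochondrial share was 1.48%, 1.57% and 1.66% in spleen, against 1.25%, 1.32% and 1.38% in marrow, with no overlap, and the nuclear share 2.47% to 3.05% in spleen and 2.68% to 3.09% in marrow. In spleen 8 of 13 mitochondrial members were higher (median 0.20) and 0 lower, and 17 of 88 nuclear members were lower and 3 higher (median -0.10), while 19.2% of all genes were called higher and 23.6% lower. The largest mitochondrial change was that of mt-Nd3 at 0.48 ± 0.07. Ndufa4 fell by 0.44 ± 0.06 on the log2 scale, with 634, 738 and 781 CPM in spleen, against 831, 991 and 1045.2 CPM in marrow, with no overlap. The complex IV subunit Cox6a1 was higher by 0.43 ± 0.07, with 289, 348 and 387 CPM in spleen, against 233, 256 and 278 CPM in marrow. TMM factors gave 8 nuclear members lower and 6 higher, DESeq2 10 and 6, and a threshold of 2 Kit UMIs 11 lower. With the mean of per-cell CPM 33 nuclear members were lower and 0 mitochondrial members higher, and with cells thinned to 1000 UMIs 6 nuclear members were lower and 0 mitochondrial members were called. Progenitor, erythroid and dendritic markers moved with tissue in these cells. The dendritic list summed to 199 to 503 CPM in spleen and 148 to 237 CPM in marrow, with medians over cells of 469 and 136 CPM. The part of these markers was not tested.

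The respiratory chain share of the monocyte class also varied with tissue. The mitochondrial share of monocytes was 1.56% ± 0.155 in spleen, 1.11% ± 0.111 in blood and 1.22% ± 0.0651 in marrow (n = 8 each). It was 1.54%, 1.95% and 1.55% in the 3 sums of Ly6c2-positive tumor cells. The nuclear share of monocytes was 2.35% ± 0.232 in spleen, 2.74% ± 0.26 in blood and 3% ± 0.136 in marrow, so its mean was lowest in spleen and highest in marrow. It was 2.02%, 1.79% and 2.12% in Ly6c2-positive tumor cells, which the markers do not place as monocytes alone.

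Ly6c2-positive tumor cells were set against blood monocytes. Their 3 sums were of hashtags 2, 3 and 4, set unpaired against blood sums of all 8 hashtags. The nuclear shares of blood monocytes were 2.53%, 2.5%, 2.48% and 2.52% in hashtags 1 to 4. In hashtags 5 to 8, which gave no tumor sum here, they were 2.87%, 3.03%, 2.93% and 3.09%. Of 87 nuclear members 38 were lower than in blood monocytes and 1 was higher (median -0.43), and 7 of 13 mitochondrial members were higher and 4 lower (median 0.53), while 15.9% of 9926 tested genes were called higher and 11.4% lower. Ndufb1-ps, a complex I subunit gene, had 264, 387 and 449 CPM in the tumor sums, all below the 805 to 1018.4 CPM of blood, a log2 fold change of -1.32 ± 0.14. Ndufb3 (-1.65 ± 0.22), Ndufa4 (-1.62 ± 0.19), Atp5k (-1.43 ± 0.18) and the assembly factor Ndufaf7 (-2.16 ± 0.43) were lower, and Cox5a was higher (0.47 ± 0.12). The gene mt-Co3 had 3630.5, 4339.3 and 3858.9 CPM in tumor, all above the 1457.5 to 2047.5 CPM of blood, a change of 1.11 ± 0.10 (edgeR adjusted p = 2.14e-10). The genes mt-Co2 (0.84 ± 0.09), mt-Atp6 (0.78 ± 0.11) and mt-Nd2 (0.65 ± 0.12) were higher, and mt-Nd6 (-2.33 ± 0.70), mt-Atp8 (-2.19 ± 0.61), mt-Nd4l (-1.25 ± 0.35) and mt-Nd5 (-0.65 ± 0.16) lower. Tumor sums held 2 UMIs of mt-Nd6 and 4 of mt-Atp8 in all. With the hashtag as a block, 30 nuclear members were lower and 1 higher, and 7 mitochondrial members were higher and 4 lower.

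TMM factors moved the all-gene median to -0.08, against 0.03 in the main setting, with 51 nuclear members lower and 1 higher and 6 mitochondrial members higher and 4 lower. Without the tumor sum of hashtag 3 the nuclear count was 25 lower, with cells thinned to 1000 UMIs 4, and with S100 thresholds of 3% in tumor or 5% in all tissues 59 and 58; thinning left 3 mitochondrial members higher. T and NK markers, with Klrb1c at 0 in both tissues, summed to 750 to 5569.9 CPM in Ly6c2-positive tumor cells and 1.03 to 402 CPM in blood, macrophage markers to 403 to 3887.6 CPM and 464 to 1880.5 CPM, and dissociation stress genes to 427 to 2270.5 CPM and 236 to 471 CPM. Their part was not tested.

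In spleen monocytes 9 of 13 mitochondrial members were higher than in blood and 2 lower (median 0.37), and of 87 nuclear members 25 were lower and 3 higher (median -0.15), while 19.9% of all genes were called higher and 5.28% lower. Ndufb1-ps fell by 0.72 ± 0.08 and Ndufa3 by 0.66 ± 0.08 on the log2 scale, and Atp5k, Atp5md and Ndufa1 by 0.50 to 0.51. The 3 higher genes were Ndufaf6 (0.75 ± 0.28), Sdhc (0.38 ± 0.13) and Sdha (0.34 ± 0.11). Of the mitochondrial genes mt-Co3 had the largest change at 0.75 ± 0.07, and mt-Nd6 (-1.31 ± 0.23) and mt-Atp8 (-0.77 ± 0.20) were lower. The all-gene median was 0.17; TMM factors moved it to 0.07 and gave 44 nuclear members lower and 0 higher, and DESeq2 moved it to 0.06 and gave 47 and 0. Without hashtag 5 the count was 16 lower, as with the mean of per-cell CPM, and with cells thinned to 1000 UMIs 5. B and plasma markers summed to 80.7 to 23930.7 CPM in spleen monocytes and 4.45 to 16.5 CPM in blood, and their part was not tested.

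Blood monocytes had 45 of 87 nuclear members lower than marrow monocytes and 10 higher (median -0.24), while 29.8% of all genes were called lower and 19.5% higher. All 4 complex II genes were lower, Sdhc by 0.82 ± 0.12 on the log2 scale with 32.7, 38.1 and 62.2 CPM in blood, against 62.6, 72 and 93.9 CPM in marrow. The assembly factors Ndufaf6 (-1.13 ± 0.25) and Ndufaf2 (-0.91 ± 0.19) and the complex I genes Ndufa12 (-0.74 ± 0.11) and Ndufab1 (-0.74 ± 0.09) were lower. Higher were Ndufaf7 (0.70 ± 0.14), Uqcrh (0.48 ± 0.07), the hinge protein of complex III, Ndufb1-ps (0.46 ± 0.08), Ndufa3 (0.37 ± 0.08) and Ndufa1 (0.34 ± 0.10). Of the mitochondrial members 5 were higher (mt-Nd6, mt-Atp8, mt-Nd4l, mt-Nd5 and mt-Co1, by 0.22 to 0.92) and 5 were lower (mt-Nd1, mt-Co3, mt-Atp6, mt-Co2 and mt-Cytb). TMM factors gave 32 nuclear members lower and 13 higher and 5 mitochondrial members higher and 3 lower. The mean of per-cell CPM gave 29 nuclear members lower, and 1 mitochondrial member higher and 5 lower. Cells thinned to 1000 UMIs gave 13 nuclear members lower, and 0 mitochondrial members higher and 3 lower. Progenitor markers summed to 19.4 to 137 CPM in blood and 3463 to 6391 CPM in marrow, with 5 of 5 tested lower. Dissociation stress genes summed to 236 to 471 CPM in blood and 39.3 to 55.6 CPM in marrow, with 4 of 4 tested higher, and 4 of 5 T and NK and 2 of 2 erythroid markers tested were higher; their part was not tested.

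The tumor-minus-blood difference was compared between the classes in a joint fit. This fit had no block, although sums of both classes from 1 hashtag and tissue come from the same mouse. With the hashtag number as a block, 60 nuclear and 13 mitochondrial members had a larger difference in the mature class. In the main setting the difference was larger in the mature class than in the monocyte class for 62 of 87 nuclear members and for 13 of 13 mitochondrial members, and smaller for 0. In tumor these classes hold the S100-rich and the Ly6c2-positive cells. Of 11329 tested genes 18.4% were called larger and 9.98% smaller. The median log2 difference of differences was 1.18 for nuclear members, 4.09 for mitochondrial members and 0.33 for all genes. The nuclear count was 30 without C1q cells, 4 with the 3% threshold in tumor and 0 with the 5% threshold, and the mitochondrial median without C1q cells was 3.17. In that order the nuclear medians were 0.81, 0.35 and -0.50, and the all-gene medians -0.08, -0.80 and -1.63. TMM factors moved the all-gene median to -0.03, with 39 nuclear members larger and 2 smaller.

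**Figure D5:**
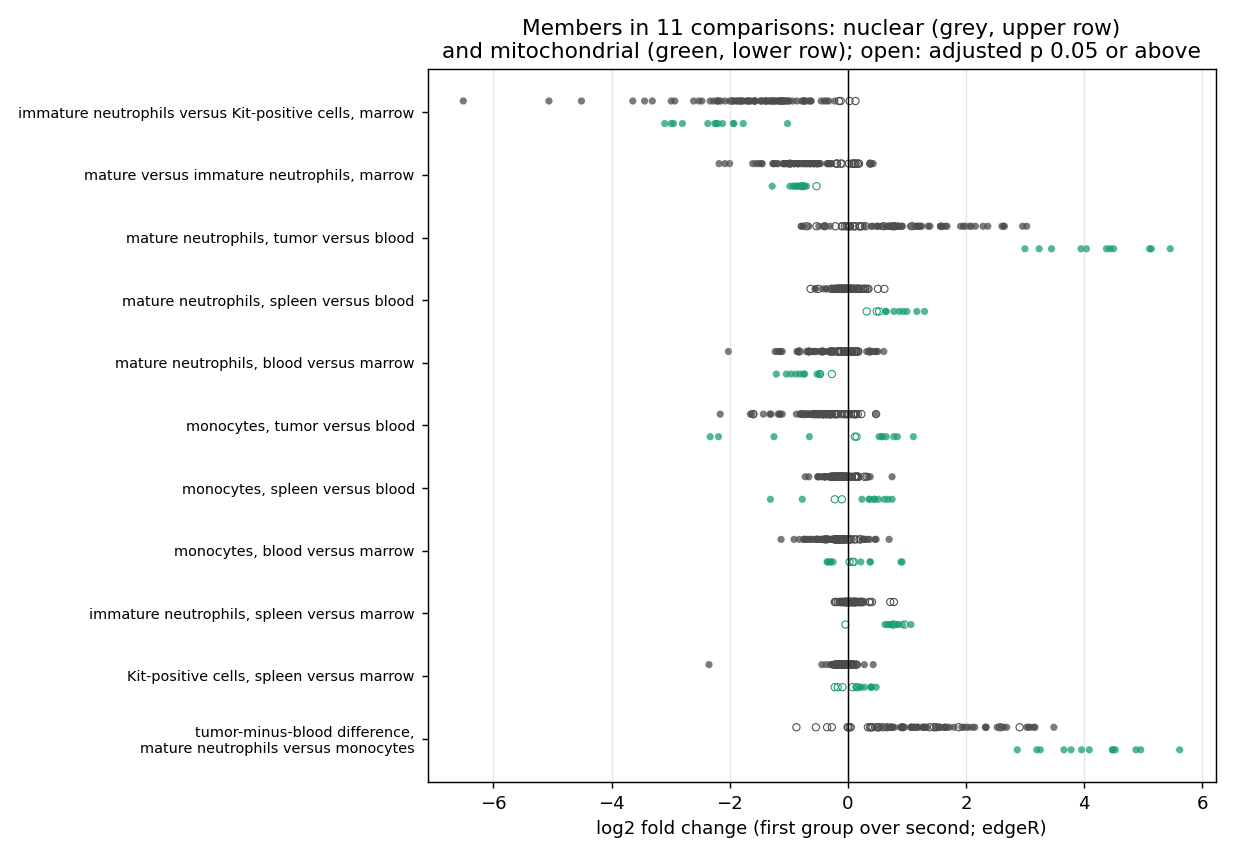
Log2 fold change of each tested member in each comparison, with nuclear members in grey above mitochondrial members in green, and open circles for members at an adjusted p of 0.05 or above. The mitochondrial members of S100-rich tumor cells against blood mature neutrophils lie between 3.0 and 5.46, and the nuclear ones between -0.79 and 3.03.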

How the data were processed

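Droplet libraries of RNA and antibody tags were made from tumor, spleen, blood and bone marrow, and the deposited matrix holds whole-number UMI counts per gene and cell from Cell Ranger 7.0.1, per the file headers. The build was mm10, per the submitters' processing notes. Barcode suffixes 1 to 4 were read as blood, marrow, spleen and tumor, a tie that the sources used here do not state outright. A cell got a hashtag when its top tag had at least 20 UMIs and 3 times the next. No doublet caller was run, and cells without such a tag were left out of all sums, which removes doublets of unlike tags only.

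The 107 members, the classes and all gene lists were chosen with earlier results of these data known. UMIs were summed per hashtag, tissue and class. The sums were tested with edgeR 4.0.16 (R 4.3.3) by its quasi-likelihood test on genes with 100 or more summed UMIs, with total UMIs as library size and Benjamini-Hochberg adjustment over all tested genes. A member was called at an adjusted p under 0.05, and errors of log2 fold changes are the fold change over the square root of F. The 2 stage comparisons in marrow had the hashtag as a block, since a tag marks a mouse there. The others had none. In the joint fit of 2 classes, mature and monocyte sums of 1 hashtag and tissue share a mouse and library. The main setting treated them as independent. Between tissues the labels do not say that a number is the same mouse. In mature neutrophils the deviations of all 8 same-numbered pairs correlated positively, at 0.13 to 0.67 for blood and spleen and 0.13 to 0.49 for blood and marrow. The main fits of these comparisons were still unpaired. Pairing by number, which would rest on the data and not the labels, was run only as an alternative with the hashtag as a block. The scripts were tested on simulated data.

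Named members were the 13 mitochondrial genes, up to 5 called nuclear members per direction and comparison with a mean of at least 10 CPM, and isoform and subunit sets, of which 1 gene is not reported here. Alternatives were TMM factors, DESeq2 1.42.0, limma 3.58.1 on log2 of the mean per-cell CPM plus 1, thinning to 1000 UMIs, other library sizes, cell filters, thresholds and hashtag margins, the block and 54 leave-one-out fits. Cells shallower than 1000 UMIs drop out on thinning. Promoters came from RefSeq (GRCm38.p6); a match used both strands. Antibody counts other than hashtags were not used.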

Additional observations from a re-analysis of the deposited data

Results flagged for a closer look

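The tumor-minus-blood difference was larger in the mature class than in the monocyte class for 62 nuclear and 13 mitochondrial members, by edgeR's quasi-likelihood interaction test at an adjusted p under 0.05. In tumor these classes hold the S100-rich and the Ly6c2-positive cells. The 5 nuclear members with the largest difference of log2 fold changes were Ndufa5 (3.49), Ndufa12 (3.17), Ndufa11 (3.15), Ndufc2 (3.09) and Atp5g1 (3.06). Among the mitochondrial complex I genes it was 4.88 for mt-Nd1, 4.48 for mt-Nd2, 4.53 for mt-Nd3, 4.49 for mt-Nd4l, 3.78 for mt-Nd4, 4.09 for mt-Nd5 and 4.96 for mt-Nd6. It was 3.96 for mt-Cytb of complex III. It was 2.87 for mt-Co1, 3.20 for mt-Co2 and 3.26 for mt-Co3 of complex IV, and 3.66 for mt-Atp6 and 5.62 for mt-Atp8 of complex V. The mt-Nd6 value turned negative with stricter S100 thresholds, and mt-Nd6 and mt-Atp8 had 2 and 4 UMIs in Ly6c2-positive tumor cells. Of 22 groups of sums checked for a share far from the others, none was flagged.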

How the results depend on the processing

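Of 6116 values of 235 named and called results under the alternatives, 5838 kept direction and side of the threshold, 263 lost the call and 15 reversed. The counts of lower nuclear members in the 2 marrow stage comparisons (84 and 68) stayed within 1.5 times under every setting run. So did the mitochondrial counts of those comparisons, of tumor against blood in the mature class and of the interaction. Higher nuclear members in immature against Kit-positive cells did not, at 0 in the main setting. They were 17 with TMM factors, 9 with DESeq2 and 10 without class genes. The nuclear median moved from -1.38 to -0.45, -0.76 and -0.62 in that order. The cause was not tested for any change given here. For nuclear members of tumor against blood in the mature class (49 higher), TMM factors gave 32, a hashtag margin of 5 gave 19 and leaving out C1q cells 20. The balance of calls reversed with the mean of per-cell CPM (19), thinning (4), and S100 thresholds of 3% in tumor (1) and 5% (0). In these settings the all-gene median was -0.70, -0.33, -0.49 and -1.09, below the nuclear median each time. For spleen against blood (6 lower) the counts were 12 with TMM factors, 19 with DESeq2, 12 without class genes in the library size, 1 with per-cell CPM, 11 with the replicate block and 3 to 7 with a replicate left out. For blood against marrow (28 lower) DESeq2 gave 45 and leaving out a replicate 17 to 32, and the balance reversed with per-cell CPM (1), thinning (5) and without high-UMI cells (10). In the monocyte class, tumor against blood (38 lower) gave 4 with thinning, 59 and 58 with the 3% and 5% thresholds and 25 to 38 with a replicate left out. Spleen against blood (25) gave 44 with TMM factors, 47 with DESeq2, 16 with per-cell CPM, 5 with thinning and 16 to 27 with a replicate left out. Blood against marrow (45) gave 29 with per-cell CPM and 13 with thinning. Kit-positive cells (17 lower) gave 8 with TMM factors, 10 with DESeq2, 33 with per-cell CPM, 6 with thinning and 11 with a Kit threshold of 2. The interaction (62) gave 39, 29, 2, 27, 4 and 30 with TMM factors, per-cell CPM, thinning, the margin of 5, the 3% threshold and without C1q cells, and reversed at 0 with the 5% threshold. Mitochondrial counts were 0 with per-cell CPM for spleen against blood (main 8) and blood against marrow (9) in the mature class, 2 with thinning for the second of these, 3 with thinning for Ly6c2-positive tumor cells (7), 6 with per-cell CPM and 3 with thinning for blood against marrow monocytes (10), 5 with thinning and 5 to 9 with a replicate left out for immature neutrophils (9), and 0 with thinning or, reversed, per-cell CPM for Kit-positive cells (8). Single log2 values that reversed were, in immature neutrophils against Kit-positive cells, Cox4i1 (0.00), Cox6a1 (0.30), Cox7a2 (0.31) and Ndufaf3 (0.77) with TMM factors, Cox7a2 (0.00) and Ndufaf3 (0.49) with DESeq2, and Cox6a1 (0.14), Cox7a2 (0.14) and Ndufaf3 (0.62) without class genes. Cox8a in mature against immature neutrophils was -0.29 without class genes. With the 5% threshold Ndufa5 was -4.68 and Sdhc -6.24 in tumor against blood, and Ndufa5 -3.79 in the interaction, where mt-Nd6 was -0.76 at 3% and -0.30 at 5%. Thinning gave -0.47 for Sdha and -0.05 for Sdhc in spleen monocytes and -0.00 for mt-Atp6 in Kit-positive cells, where per-cell CPM gave -0.06 for mt-Atp6 and -0.29 for mt-Cytb. Hashtag numbers recur across tissues, but the sources do not say that a number is the same mouse: outside the mature comparisons of blood with spleen and marrow, deviations of same-numbered sums correlated at -0.31 to 0.47, not all over 0.1. With the replicate block the nuclear counts of the 9 other fits were 43, 11, 29, 30, 34, 50, 0, 18 and 60. The tumor sums hold 5 to 23 cells, so tumor levels of low genes rest on few UMIs.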

Other observations

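Of other mitochondrial genes, named after their values were seen, some differed between S100-rich tumor cells and blood mature neutrophils. Against blood, S100-rich tumor cells had Sod2, the superoxide dismutase of the matrix, higher by 3.99 ± 0.24 on the log2 scale, cytochrome c (Cycs) by 2.39 ± 0.37 and Hif1a by 2.08 ± 0.16. Over all genes 29.3% were higher and 23.0% lower. Genes of mitochondrial DNA and RNA upkeep had 2 of 10 higher and 1 lower, regulators 1 of 6 and 1, assembly factors of complexes III and IV 3 of 12 and 1, mitophagy and outer membrane genes 4 of 8 and 2, and uncoupling and antioxidant genes 2 of 7 and 1. Pink1 (-1.63) and Gpx4 (-1.14) were among the lower genes. Apart from the mitophagy and outer membrane genes, 16.7% to 28.6% of the genes in these lists were higher. With so few genes in a list these shares are near that of all genes.

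In Ly6c2-positive tumor cells the mitochondrial ribosome had 20 of 78 genes lower and 2 higher than in blood monocytes (median -0.44), while 11.4% of all genes were lower and 15.9% higher, and regulators 4 of 9 higher and 0 lower (0.96). Against marrow, where 29.8% of all genes were lower and 19.5% higher, blood monocytes had 46 of 78 ribosome genes lower and 3 higher (-0.39), 10 of 16 TCA cycle genes lower and 0 higher, 11 of 15 import genes lower and 1 higher, and 6 of 9 regulators lower and 1 higher. In blood mature neutrophils 20 of 63 ribosome genes were lower and 6 higher than in marrow (-0.25), while 14.1% of all genes were lower and 32.8% higher. Between spleen and marrow immature neutrophils 1 of 71 ribosome genes was lower and 0 higher, while 0.426% of all genes were lower and 0.563% higher.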
